A study of Mus musculus with 12 samples.

Results

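The 7 genes described here belong to the glucocorticoid system and were followed in liver RNA of tumour-bearing mice kept at 3 housing temperatures. They were chosen by gene symbol and not by their measured values: Serpina6, Hsd11b1, Nr3c1, Fkbp5, Tsc22d3, Sgk1 and Zbtb16. Each had a single row among the 55421 genes of the count table, and 7 of 7 passed the low-count filter that left 15006 genes for testing. All mice were wild type and carried tumours of E0771, a mouse mammary carcinoma line implanted into the mammary fat pad. Following 1 week of acclimatisation, housing was at 6 °C (libraries 1 to 4), at 22 °C, a usual animal-room temperature (libraries 5 to 8), or at 29 °C, close to thermoneutrality for mice (libraries 9 to 12), and livers were taken on day 21. No library without a tumour was used here, so the values describe housing temperature among tumour-bearing animals. The labels give no age or sex. Whether the libraries are of different animals is not stated, and the p-values therefore rest on library-to-library spread, which may be technical. The growth protocol names both Balb/C and C57Bl6/J mice without tying either strain to a library.

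Glucocorticoids, corticosterone in the mouse, are adrenal steroids that circulate bound to a globulin made by the liver. Inside the hepatocyte the inactive 11-keto form can be reduced to the active hormone. The hormone releases the glucocorticoid receptor from a chaperone complex built on Hsp90, and the receptor then enters the nucleus and binds DNA. In liver it is known for raising genes of amino acid breakdown and gluconeogenesis, and it also induces genes that dampen its own signal. The 7 genes were described in that order, as carrier, hormone-activating enzyme, receptor and receptor-induced genes.

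The receptor binds a palindromic element, here searched as AGAACA, then any 3 bases, then TGTTCT, which reads the same on both strands. Among 32851 RefSeq promoter windows (GRCm38.p6) of 300 bases, from 250 before to 50 after a transcript start, 3 windows (0.00913%) held this exact element. A window of Sgk1, the serum- and glucocorticoid-regulated kinase, was among them, and it is shown because none of the other 10 windows of the 7 genes held it. That window lies on the plus strand at chr10:21993640-21993939, the first base of the element is at position −189 from the start, and the full element and a further single TGTTCT are in capitals.
Sgk1: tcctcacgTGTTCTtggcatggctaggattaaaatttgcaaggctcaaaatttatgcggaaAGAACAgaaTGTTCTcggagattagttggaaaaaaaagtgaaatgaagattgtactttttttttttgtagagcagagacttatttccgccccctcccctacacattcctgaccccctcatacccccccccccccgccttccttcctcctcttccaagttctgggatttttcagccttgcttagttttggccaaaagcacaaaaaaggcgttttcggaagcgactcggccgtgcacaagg
A single AGAACA or TGTTCT was common, being present in 6233 of all windows (19.0%) and in 4 of the 11 windows of these genes, 3 of them of Sgk1. The fourth belongs to Tsc22d3, which encodes the glucocorticoid-induced leucine zipper protein GILZ, and it is shown to set a lone TGTTCT (in capitals, first base at position −185) beside the full element. It lies on the minus strand at chrX:140600473-140600772.
Tsc22d3: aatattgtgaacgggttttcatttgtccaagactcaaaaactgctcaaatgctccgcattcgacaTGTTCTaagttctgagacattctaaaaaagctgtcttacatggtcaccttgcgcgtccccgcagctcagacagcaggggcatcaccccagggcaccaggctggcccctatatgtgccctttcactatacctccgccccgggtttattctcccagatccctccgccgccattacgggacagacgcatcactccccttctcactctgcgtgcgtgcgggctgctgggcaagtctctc
Windows of 4 of the 7 genes were in the table, those of Hsd11b1, Sgk1, Fkbp5 and Tsc22d3, and most of them were of Sgk1. A match is a string of letters and not evidence of binding, and its absence says only that these letters are not in the window.

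Total counts ran from 7615585 to 19001126 per library, and the 7 genes had between 392 counts (Sgk1, library 1) and 7854 counts (Serpina6, library 1). Levels are CPM, the usual depth-scaled counts, computed with TMM-scaled library sizes. Libraries 1, 7, 8 and 9 had 134 to 248 counts of H2-Ea-ps, a pseudogene of the MHC class II region, and the other 8 (3 at 6 °C, 2 at 22 °C and 3 at 29 °C) had 0. An earlier account of these data had already shown these 4 to stand apart, and they are not a group of the study. Whether these 4 differ in strain from the other 8 is not stated. Libraries 5 and 6 also stood apart, with 0.667% and 0.605% of counts in the noncoding RNA Gm26917, against 1.66% to 8.70% in the other 10 libraries, and with the highest summed hepatocyte markers, 178000 and 173000 CPM against 71300 to 154000 CPM. All 6 hepatocyte markers were counted in every library, as the liver label implies. In bulk tissue, fewer cells of a type and less RNA per cell cannot be told apart.

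Serpina6 encodes corticosteroid-binding globulin, the carrier of the hormone in blood (ENSMUSG00000060807.7; chr12:103646630-103657212 in GRCm38, minus strand). Its level was 566, 281, 445 and 479 CPM in libraries 1 to 4 at 6 °C, 339, 424, 98.6 and 169 CPM in libraries 5 to 8 at 22 °C, and 82.5, 120, 149 and 151 CPM in libraries 9 to 12 at 29 °C. Every library at 29 °C lay below every library at 6 °C, and the 22 °C libraries fell into a pair at the level of 6 °C (libraries 5 and 6) and a pair near the level of 29 °C (libraries 7 and 8). Serpina6 fell to 126 ± 32.1 CPM at 29 °C, against 443 ± 119 CPM at 6 °C (SD, n = 4 each), a 3.53-fold difference and the only one of the 7 genes to pass in this comparison. The log2 fold change was −1.82 (SE 0.40, 95% interval −2.68 to −0.96; edgeR quasi-likelihood test, adjusted p = 0.0366). In this comparison 379 of 15006 genes (2.53%) passed, and 1 of the 7 did.

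The size of the Serpina6 difference at 29 °C against 6 °C was steadier than its call. Leaving out single libraries kept the log2 fold change between −1.99 and −1.66, but the adjusted p lay above 0.05, between 0.0621 and 0.116, without library 1, 3, 4, 9, 10, 11 or 12 in turn. Among the 8 libraries that lack H2-Ea-ps counts it was −1.52 (adjusted p = 0.000976), in a fit that called 1504 genes, against 379 with all libraries. Summed neutrophil markers (6 genes) were 302 to 1650 CPM at 29 °C and 8.28 to 560 CPM at 6 °C, and summed Kupffer cell and macrophage markers (7 genes) were 477 to 1010 CPM at 29 °C and 382 to 720 CPM at 6 °C. Hepatocyte marker sums spanned 71300 to 154000 CPM at 29 °C and 77800 to 117000 CPM at 6 °C. The part of these cell markers in the Serpina6 difference was not tested.

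The 22 °C group gave no stable value for Serpina6. Against 22 °C (258 ± 150 CPM), the log2 difference was −1.04 at 29 °C (95% interval −1.88 to −0.19; adjusted p = 0.267) and 0.78 at 6 °C (95% interval −0.06 to 1.62; adjusted p = 0.45). With libraries 5 and 6 left out, these became −0.09 (adjusted p = 0.944) and 1.73 (adjusted p = 0.185). Among libraries that lack H2-Ea-ps counts, where libraries 5 and 6 are the whole 22 °C group, they were −1.45 (adjusted p = 0.00173) and 0.06 (adjusted p = 0.891). That fit called 2594 genes at 29 °C and 1015 at 6 °C against 22 °C, against 0 and 5 with all libraries. Libraries 7 and 8 had hepatocyte marker sums of 83200 and 76800 CPM, and the part of that difference from libraries 5 and 6 was not tested.

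**Figure D1:**
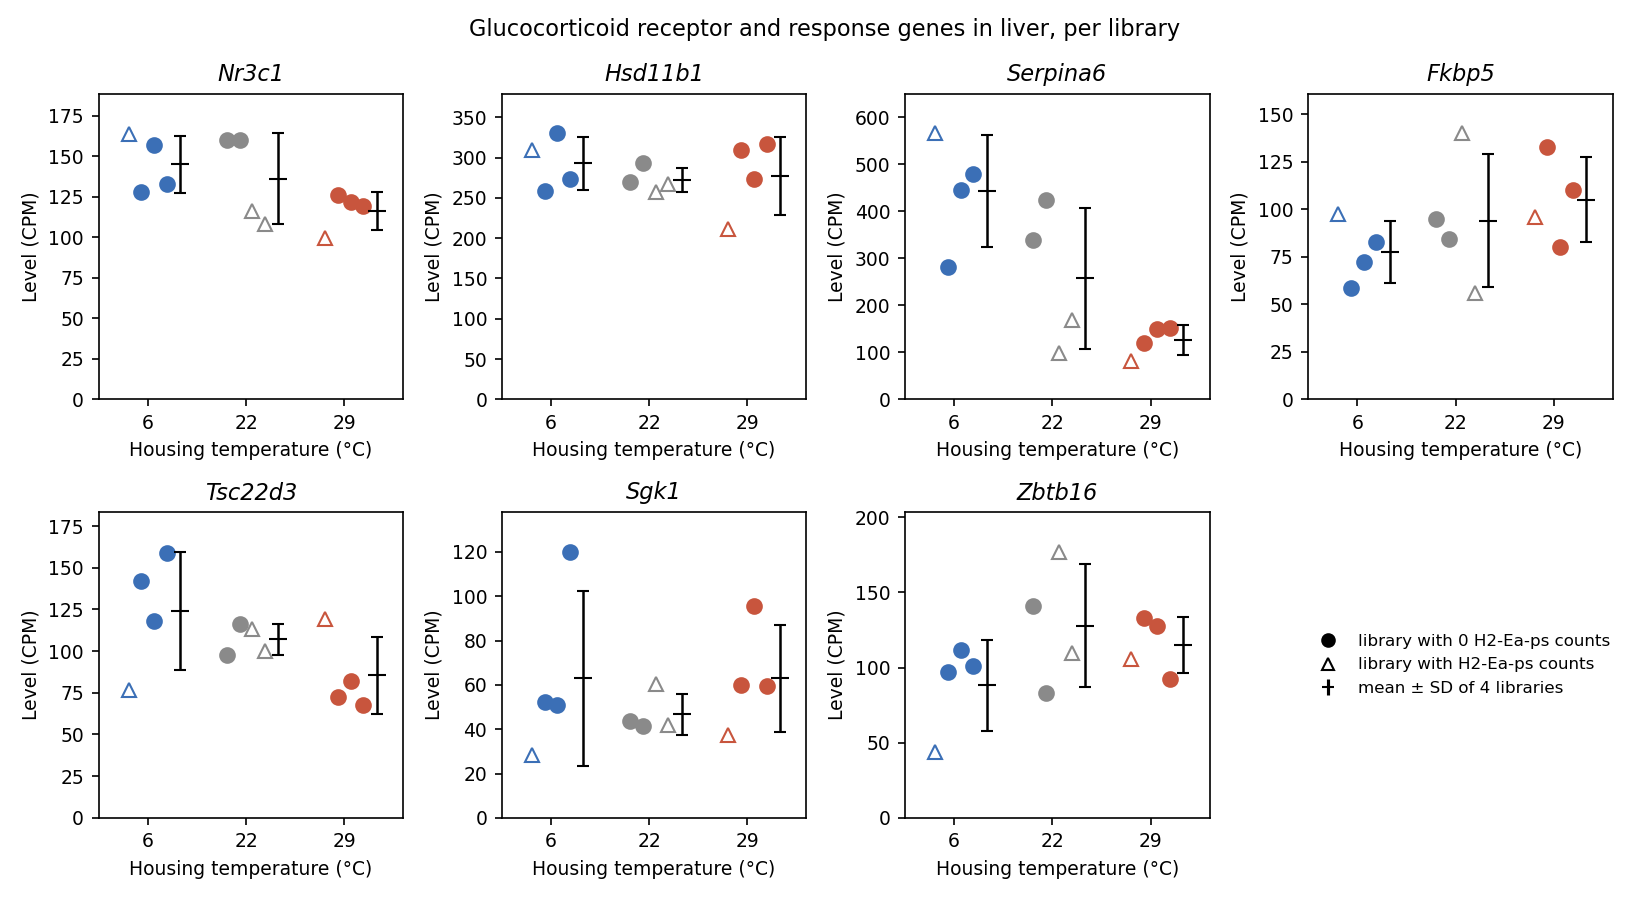
Level of each of the 7 genes (y axis, CPM, from 0) in each library by housing temperature (x axis, °C). Points are libraries, open triangles are the 4 libraries with H2-Ea-ps counts, and the bars are mean ± SD of 4 libraries. Serpina6 lies between 82.5 and 151 CPM at 29 °C, below all 6 °C libraries, whereas the Hsd11b1 groups overlap, between 211 and 330 CPM over all temperatures.

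Hsd11b1 encodes 11β-hydroxysteroid dehydrogenase type 1, which regenerates active corticosterone in the liver (ENSMUSG00000016194.14; chr1:193221634-193264075, minus strand). It was the least variable of the 7 over the 12 libraries, with 310, 259, 330 and 274 CPM at 6 °C, 270, 293, 257 and 267 CPM at 22 °C, and 211, 309, 273 and 317 CPM at 29 °C. The highest level was 1.57 times the lowest, and the groups overlapped throughout. The log2 difference was −0.08 at 29 °C against 6 °C (95% interval −0.41 to 0.26; adjusted p = 0.834) and 0.03 at 29 °C against 22 °C (95% interval −0.30 to 0.37; adjusted p = 0.945). At 6 °C against 22 °C it was 0.11 (95% interval −0.23 to 0.44; adjusted p = 0.823). These intervals leave room for differences up to the quoted bounds and none passed.

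H6pd, the enzyme of the endoplasmic reticulum that supplies NADPH to Hsd11b1, averaged 685 ± 200 CPM at 29 °C and 623 ± 184 CPM at 6 °C (difference 0.14 on the log2 scale, adjusted p = 0.826). Its 22 °C mean was 554 ± 106 CPM. Hsd11b2, the enzyme that inactivates the hormone in kidney and other mineralocorticoid targets, had 1 count in library 9 and 0 in the other 11 libraries. A count of 0 allows up to 0.151 to 0.399 CPM, the value of 3 counts in the deepest and the shallowest library, for counting error only. The carrier thus varied 6.86-fold over the libraries while the activating enzyme varied 1.57-fold, as the plot of levels by library shows.

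Nr3c1 encodes the glucocorticoid receptor (ENSMUSG00000024431.15; chr18:39410545-39519421, minus strand). It was measured at 164, 128, 157 and 133 CPM at 6 °C, 160, 160, 116 and 108 CPM at 22 °C, and 99.3, 126, 122 and 119 CPM at 29 °C. As for Serpina6, every 29 °C library lay below every 6 °C library, though only by 126 against 128 CPM at the nearest point, and libraries 5 and 6 lay above libraries 7 and 8. Groups that do not overlap occurred in 1995 of 15006 genes (13.3%) in this comparison, and in 2 of the 7. The mean was 116 ± 11.8 CPM at 29 °C and 145 ± 17.6 CPM at 6 °C, and the log2 difference of −0.32 (95% interval −0.67 to 0.03) did not pass (edgeR, adjusted p = 0.295, and 0.132 to 0.497 over 19 alternatives). The receptor's log2 difference was −0.22 at 29 °C against 22 °C (adjusted p = 0.545), which became 0.06 with libraries 5 and 6 left out (adjusted p = 0.929). At 6 °C against 22 °C it was 0.10 (adjusted p = 0.849), which became −0.21 among libraries that lack H2-Ea-ps counts (adjusted p = 0.373).

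Nr3c2, the mineralocorticoid receptor, which also binds corticosterone, averaged 17.0 ± 2.95 CPM at 29 °C and 23.6 ± 7.62 CPM at 6 °C (difference −0.47 on the log2 scale, adjusted p = 0.315). Fkbp4 encodes FKBP52, the Hsp90 co-chaperone that favours hormone binding by the receptor. Fkbp4 averaged 71.5 ± 19.7 CPM at 29 °C and 140 ± 42.8 CPM at 6 °C, a log2 difference of −0.97 that missed the threshold (95% interval −1.50 to −0.43; adjusted p = 0.0574). It passed in 5 of 19 alternatives, with adjusted p between 0.00731 and 0.159.

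Fkbp5 encodes FKBP51, a co-chaperone that lowers the receptor's affinity for hormone and is itself induced by the receptor (ENSMUSG00000024222.17; chr17:28399094-28517527, minus strand). It had 97.4, 58.8, 72.5 and 82.6 CPM at 6 °C, 95.0, 84.5, 140 and 55.9 CPM at 22 °C, and 96.2, 133, 80.2 and 110 CPM at 29 °C. The highest and the lowest of all 12 values were both from 22 °C, libraries 7 and 8. The mean was 105 ± 22.4 CPM at 29 °C and 77.8 ± 16.3 CPM at 6 °C, with overlapping groups and a log2 difference of 0.43 (95% interval −0.11 to 0.97; adjusted p = 0.373). Among libraries that lack H2-Ea-ps counts that difference was 0.60 (adjusted p = 0.0534).

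Tsc22d3, whose product GILZ carries part of the anti-inflammatory action of glucocorticoids (ENSMUSG00000031431.13; chrX:140539528-140600659, minus strand), had the opposite sign. It had 76.8, 142, 118 and 159 CPM at 6 °C, 97.5, 116, 113 and 99.8 CPM at 22 °C, and 119, 72.7, 82.3 and 67.8 CPM at 29 °C. The groups at 29 °C and 6 °C overlapped only through libraries 9 and 1, the highest at 29 °C and the lowest at 6 °C, and both of these had H2-Ea-ps counts. With all libraries the mean was 85.5 ± 23.2 CPM at 29 °C and 124 ± 35.5 CPM at 6 °C, and the log2 difference of −0.53 (95% interval −1.01 to −0.06) did not pass (adjusted p = 0.2). Among the 8 libraries that lack H2-Ea-ps counts it was −0.90 at 29 °C against 6 °C (adjusted p = 0.00258) and −0.53 at 29 °C against 22 °C (adjusted p = 0.035), against −0.32 with all libraries in that second comparison (adjusted p = 0.514). Under a term for the H2-Ea-ps libraries in the model, which keeps all 12, the difference at 29 °C against 6 °C was −0.54 and did not pass (adjusted p = 0.123).

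Sgk1, a kinase that acts on ion channels and transporters (ENSMUSG00000019970.15; chr10:21882184-21999903, plus strand), carried the full receptor element shown above in 1 of its several windows. Its levels were 28.2, 52.4, 51.1 and 120 CPM at 6 °C, 43.6, 41.4, 60.3 and 41.7 CPM at 22 °C, and 37.3, 59.9, 95.6 and 59.3 CPM at 29 °C. Single libraries set the spread, with library 4 the highest and library 1 the lowest of all 12, both at 6 °C. The means were 63.0 ± 24.1 CPM at 29 °C and 62.9 ± 39.6 CPM at 6 °C, and the interval of the log2 difference, −0.83 to 0.84, was wide (adjusted p = 0.997). The difference at 29 °C against 22 °C was 0.43 (95% interval −0.41 to 1.27; adjusted p = 0.63), and at 6 °C against 22 °C it was also 0.43 (adjusted p = 0.689).

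Zbtb16 encodes the zinc-finger repressor PLZF, which glucocorticoids induce in several tissues and which also marks natural killer T cells (ENSMUSG00000066687.5; chr9:48654297-48836222, minus strand). It had 44.0, 96.8, 112 and 101 CPM at 6 °C, 141, 83.0, 177 and 110 CPM at 22 °C, and 106, 133, 128 and 92.6 CPM at 29 °C. Library 1 was the lowest and library 7 the highest, and all groups overlapped. The log2 difference was 0.38 at 29 °C against 6 °C (95% interval −0.22 to 0.98; adjusted p = 0.488) and −0.15 at 29 °C against 22 °C (adjusted p = 0.834). At 6 °C against 22 °C it was −0.54 (95% interval −1.14 to 0.07; adjusted p = 0.469), and −0.13 among libraries that lack H2-Ea-ps counts (adjusted p = 0.759). Summed T and NKT cell markers (6 genes, 3 of them counted in every library) were 3.67 to 6.12 CPM at 6 °C, 3.96 to 11.9 CPM at 22 °C and 3.32 to 7.85 CPM at 29 °C, and their part in the Zbtb16 levels was not tested.

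The 4 receptor-induced genes therefore shared no direction at 29 °C against 6 °C, with log2 differences of 0.43 for Fkbp5, −0.53 for Tsc22d3, 0.00 for Sgk1 and 0.38 for Zbtb16, none of which passed. Against 22 °C, 0 of the 7 genes passed at 29 °C, and 0 of 15006 genes did so (0%) by edgeR's quasi-likelihood test, while 2241 had an unadjusted p under 0.05, Serpina6 among them as 1 of the 7. DESeq2 called 310 genes in that comparison and 0 of the 7. At 6 °C against 22 °C, 5 of 15006 genes passed (0.0333%) and 0 of the 7, none of which had an unadjusted p under 0.05 by edgeR. DESeq2 called 165 genes there and 0 of the 7. Groups of the 7 genes overlapped in both comparisons with 22 °C, where 7.68% of all genes did not overlap at 29 °C against 22 °C and 6.33% at 6 °C against 22 °C. The 3 comparisons share libraries and are not independent of each other.

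**Figure D2:**
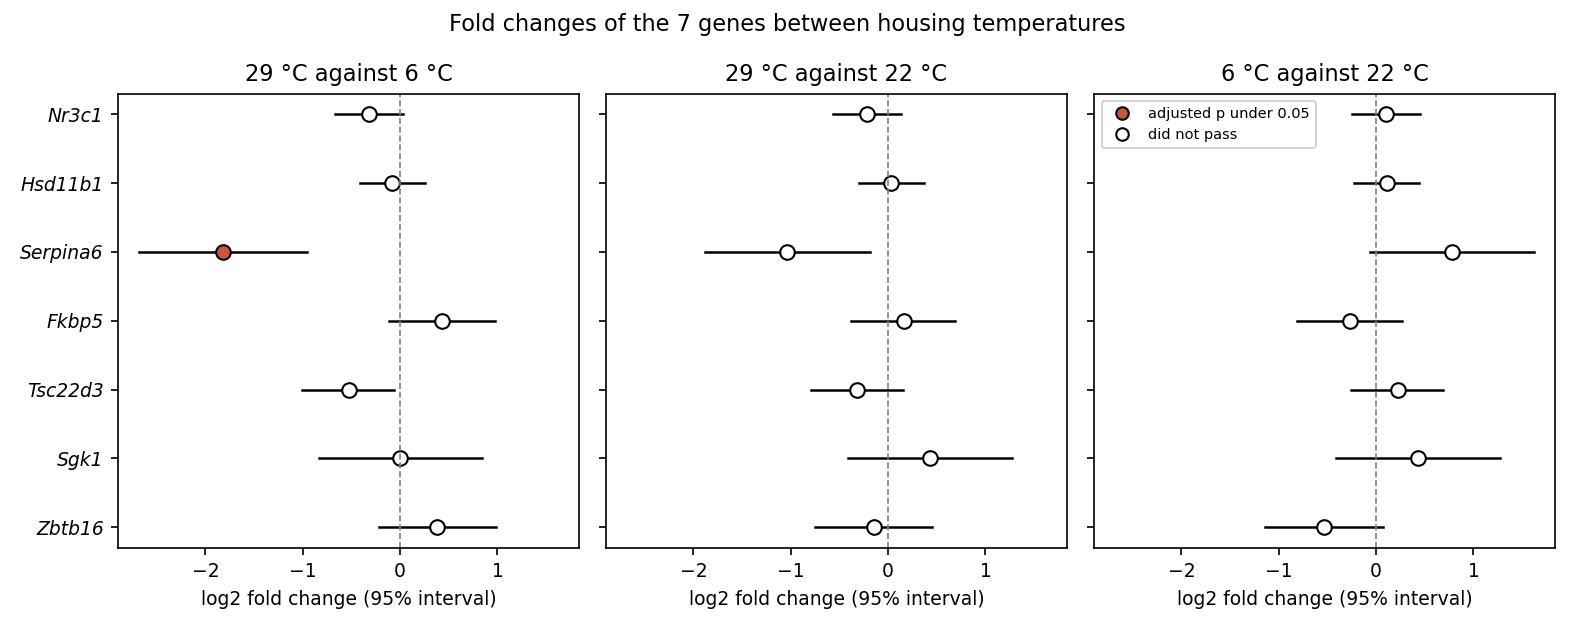
Log2 fold changes (x axis) of the 7 genes (y axis) in the 3 comparisons, with 95% intervals as lines. The filled point is the only one with an adjusted p under 0.05, Serpina6 at 29 °C against 6 °C (−1.82), and the intervals of Hsd11b1 are narrow and include 0 in each panel.

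Levels of different genes were compared per kilobase of merged exons. These are all annotated exons of a gene, and which transcripts the liver expressed was not examined. Serpina6 had the highest mean, 156 ± 96.3 CPM per kb (SD, n = 12 libraries), then Hsd11b1 with 66.0 ± 7.72, Tsc22d3 with 24.3 ± 6.44, Zbtb16 with 20.9 ± 6.26, Nr3c1 with 17.3 ± 2.90, Sgk1 with 11.7 ± 5.29 and Fkbp5 with 9.74 ± 2.75 CPM per kb. The first step of this order differed between the groups, which was not tested. Serpina6 was above Hsd11b1 in 4 of 4 libraries at 6 °C, 3 of 4 at 22 °C and 2 of 4 at 29 °C. At 29 °C the carrier and the enzyme were close, with 71.3 ± 18.2 CPM per kb for Serpina6 and 65.3 ± 11.4 CPM per kb for Hsd11b1. Hsd11b1 was above Tsc22d3 in 12 of 12 libraries. The order of Tsc22d3 and Zbtb16 also differed between the groups, though this was not tested. Tsc22d3 was above Zbtb16 in 4 of 4 libraries at 6 °C, 2 of 4 at 22 °C and 1 of 4 at 29 °C. Their means were 28.5 ± 8.17 CPM per kb for Tsc22d3 and 16.7 ± 5.72 CPM per kb for Zbtb16 at 6 °C, and 19.7 ± 5.34 and 21.8 ± 3.58 CPM per kb for the same genes at 29 °C. Sgk1 was above Fkbp5 in 6 of 12 libraries, so these neighbours did not differ beyond their spread. Zbtb16 was above Nr3c1, and Nr3c1 above Sgk1, in 10 of 12 libraries each.

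The pooled SD within a temperature, on the log2 scale, was 0.19 for Hsd11b1, 0.22 for Nr3c1, 0.35 for Tsc22d3, 0.40 for Fkbp5, 0.47 for Zbtb16, 0.61 for Sgk1 and 0.65 for Serpina6. The median over 5204 genes with a mean of at least 25 CPM was 0.25. The enzyme and the receptor were thus below that median, and the receptor-induced genes and the carrier above it.

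Other genes of the pathway were taken from 4 lists. These were drawn up with earlier results of these data known, so their shares are descriptions and not a test of enrichment. Among 22 liver metabolic targets of the receptor, 2 fell at 29 °C against 6 °C and 0 rose, where 209 of all 15006 genes fell and 170 rose (2.53% in either direction). Of these 22, 16 had a negative difference and 6 a positive one, against 7494 negative of all 15006 genes. An unadjusted p under 0.05, in either direction, occurred for 14 of the list (63.6%), against 2913 of all genes (19.4%). The list's median was −0.65, against 0.00 over all genes tested. The 2 that fell were Tat, tyrosine aminotransferase, the textbook glucocorticoid-induced liver enzyme, and Tdo2, the first enzyme of tryptophan breakdown. Tat had 625, 562, 1160 and 774 CPM at 29 °C and 1600, 2570, 2040 and 3390 CPM at 6 °C, with no overlap (log2 difference −1.62, adjusted p = 0.0227). Tdo2 averaged 347 ± 75.0 CPM at 29 °C and 770 ± 233 CPM at 6 °C (difference −1.15 on the log2 scale, adjusted p = 0.0276). Pck1, which commits carbon to gluconeogenesis, averaged 2720 ± 834 CPM at 29 °C and 4300 ± 891 CPM at 6 °C and did not pass (log2 difference −0.66, adjusted p = 0.144). The largest positive differences were those of Pdk4 (log2 difference 2.19, edgeR adjusted p = 0.0934) and Angptl4 (1.49, adjusted p = 0.117), which did not pass either. The calls of Tat were lost without library 3, 4, 10 or 12 (adjusted p up to 0.0848), and those of Tdo2 without library 3, 4, 9, 10 or 11 (up to 0.10). DESeq2 called 7 of the 22 lower and 2 higher at 29 °C, and the H2-Ea-ps term 8 lower and 0 higher. Over all genes, DESeq2 called 1178 and the fit with that term 1884, against 379 by edgeR without it.

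Of 22 more general glucocorticoid-induced genes, 1 fell at 29 °C and 0 rose, with 13 positive and 9 negative differences and a median of 0.09. An unadjusted p under 0.05 occurred for 5 of them (22.7%, against 19.4% of all genes). DESeq2 called 2 of the 22 higher and 3 lower at 29 °C, where it called 1178 of all genes. With the H2-Ea-ps term 1 was higher and 3 were lower, where 1884 of all genes were called. Klf15, a transcription factor that the receptor induces and that raises amino acid breakdown, averaged 102 ± 23.4 CPM at 29 °C and 196 ± 65.2 CPM at 6 °C (difference −0.95 on the log2 scale, adjusted p = 0.0451). Klf15 passed in 8 of 19 alternatives and lost its call without any 1 of libraries 2, 3, 4, 5, 6, 8, 9, 10, 11 or 12 (adjusted p up to 0.135). Per1, a clock gene with direct receptor binding, averaged 73.6 ± 13.6 CPM at 29 °C and 68.4 ± 15.3 CPM at 6 °C (difference 0.10 on the log2 scale, adjusted p = 0.847). The largest differences of the general list were positive, those of Cdkn1a (log2 difference 2.33, edgeR adjusted p = 0.0775) and Dusp1 (1.62, adjusted p = 0.1), and did not pass. The general list thus did not share the negative median of the liver metabolic list.

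Of 13 measured genes of hepatic corticosteroid metabolism, 1 fell and 0 rose at 29 °C against 6 °C, and 9 had a negative difference, with a median of −0.51. An unadjusted p under 0.05 occurred for 4 of the 13 (30.8%, against 19.4% of all genes). DESeq2 called 4 lower and 0 higher, where it called 1178 of all genes. With the H2-Ea-ps term 5 were lower and 0 higher, where 1884 of all genes were called. The 1 that fell by edgeR without that term was Hsd3b2, a member of the 3β-hydroxysteroid dehydrogenase family, with 3.90 ± 0.613 CPM at 29 °C and 11.1 ± 4.61 CPM at 6 °C (difference −1.51 on the log2 scale, adjusted p = 0.04). It passed in 11 of 19 alternatives and not without library 1, 2, 3, 4, 9, 10, 11 or 12 (adjusted p up to 0.123), and reads shared with other genes of that family could not be separated here. Of 20 receptor chaperones and coregulators, 0 passed by edgeR with all 12 libraries, the low-count filter and no further term. In that fit 4 had an unadjusted p under 0.05 (20.0%), close to the 19.4% of all genes, with a median of −0.02. DESeq2 called 2 of the 20, both lower at 29 °C, among its 1178 calls over all genes. With the H2-Ea-ps term 2 were lower, and without the low-count filter 1 was lower, where 383 genes were called. Among libraries that lack H2-Ea-ps counts 1 was higher and 4 were lower, where 1504 genes were called.

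Against 22 °C, 0 listed genes passed in the edgeR fit of all 12 libraries without a further term, in either comparison, nor by edgeR with any single library left out. At 29 °C against 22 °C the lowest p in each list belonged to Ncoa2, a receptor coactivator (log2 difference −0.40, adjusted p = 0.227), Cyp3a25, a steroid hydroxylase of the P450 family (log2 difference −0.84, adjusted p = 0.219), Bcl6, a transcriptional repressor (log2 difference −1.29, adjusted p = 0.289, and −0.65 without library 5, which had 124 CPM against 26.0 to 52.9 CPM in the other 22 °C libraries), and Tat (log2 difference −1.08, adjusted p = 0.179). At 6 °C against 22 °C it belonged to Ncor1, a corepressor (log2 difference −0.45, adjusted p = 0.284), Hsd3b7, an enzyme of bile acid synthesis (log2 difference −1.05, adjusted p = 0.264), Foxo3, a transcription factor of fasting (log2 difference 0.58, adjusted p = 0.18), and Gpt, alanine aminotransferase (log2 difference 0.69, adjusted p = 0.268). The liver metabolic list had 18 of 22 positive differences at 6 °C against 22 °C with a median of 0.46, and 14 of 22 negative at 29 °C against 22 °C with a median of −0.12. Unadjusted p under 0.05 occurred for 6 of its genes at 6 °C against 22 °C (27.3%, against 11.9% of all genes) and for 2 at 29 °C against 22 °C (9.09%, against 14.9% of all genes).

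Some of these genes passed in other fits. At 29 °C against 22 °C, Tat passed with DESeq2 (adjusted p = 0.0255), with the H2-Ea-ps term (0.0239) and among libraries that lack H2-Ea-ps counts (0.0113), and Ncoa2 passed with that term (0.0487) and in those libraries (0.0254). Cyp3a25 (adjusted p = 0.0365, lower at 29 °C) and Per1 (adjusted p = 0.0327, higher at 29 °C) passed only in those libraries, 3 at 29 °C and 2 at 22 °C. That fit called 2594 genes, with further listed genes among them. In the general list 5 were higher and 0 lower, and in corticosteroid metabolism 0 and 3. In the liver metabolic list 1 was higher and 1 lower, and among chaperones and coregulators 2 and 5. The fit with the H2-Ea-ps term called 516 genes, with 1 further gene of corticosteroid metabolism lower at 29 °C. At 6 °C against 22 °C, DESeq2 called 165 genes, with 2 genes of the general list higher at 6 °C, 1 of them Foxo3 (adjusted p = 0.00432). Foxo3 also passed in the libraries that lack H2-Ea-ps counts (0.0181), as did Gpt (0.0201) and Ncor1 (0.0255). There 1015 genes were called, with 3 general and 2 liver metabolic genes higher at 6 °C and 2 chaperones or coregulators lower.

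**Figure D3:**
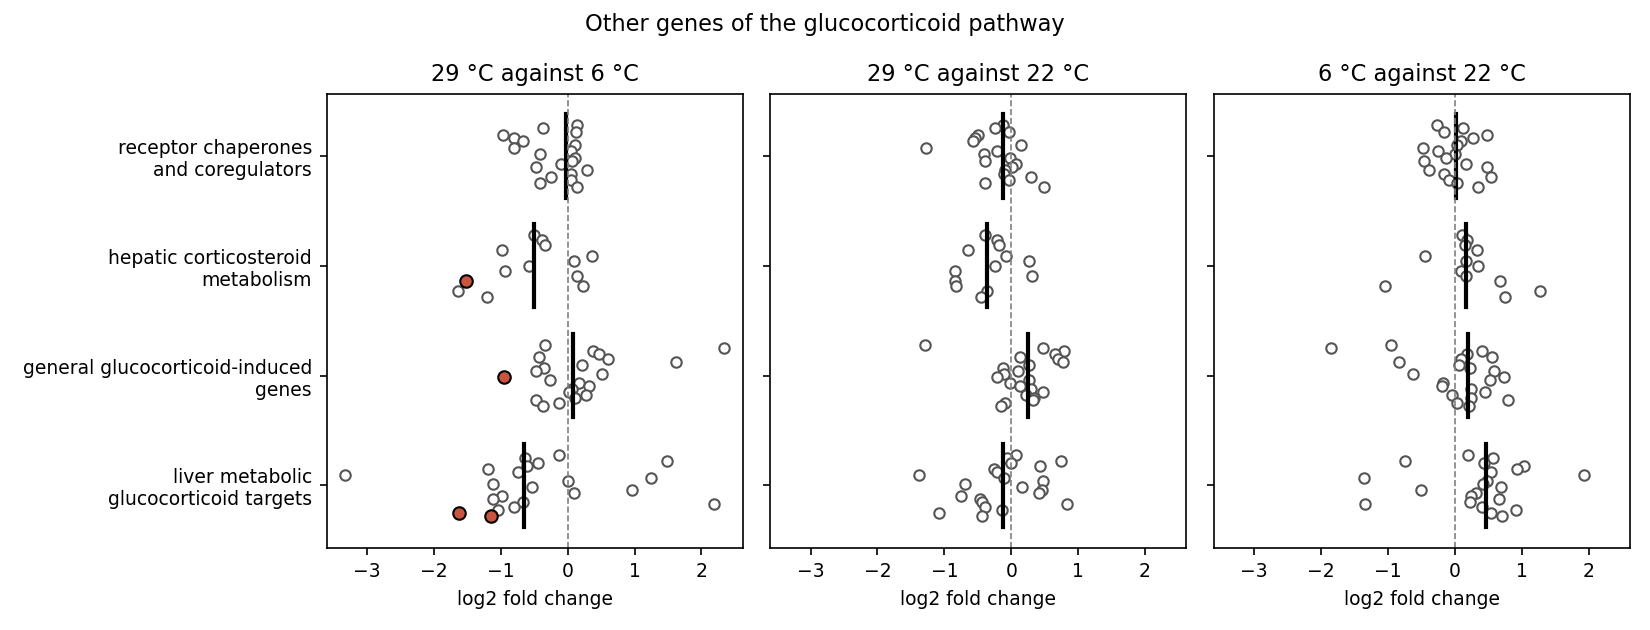
Log2 fold changes (x axis) of the genes of the 4 pathway lists (rows) in the 3 comparisons, 1 point per gene, with list medians as black bars. Filled points passed at an adjusted p of 0.05. At 29 °C against 6 °C the filled points are Hsd3b2, Klf15, Tat and Tdo2, all negative, and the median of the liver metabolic list is −0.65.

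The pattern of each gene over the 12 libraries was compared with that of 12411 genes, as the root mean square difference of standardised log2 CPM, where 0 is the same pattern and the median gene lay at 1.40 to 1.42. Of all pairs among the 7, Serpina6 and Nr3c1 were nearest at 0.52, with 104 genes nearer still to Nr3c1. Serpina6 and Zbtb16 were farthest apart at 1.78, and the receptor-induced Fkbp5 and Tsc22d3 lay at 1.70. Sgk1 and Zbtb16 were at 1.04. Distances were computed over libraries that share temperature and the split described above, so they are descriptions without a test.

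The genes nearest to the receptor were Erap1 at 0.27, Dpp4 at 0.28 and Spag9 at 0.28. For Serpina6 they were Ank3 at 0.28, Fbxo3 at 0.29 and Upp2 at 0.30. The other 5 had no neighbour as near. The closest to Fkbp5 was St3gal5 at 0.42 and the closest to Hsd11b1 was Lpcat3 at 0.45, followed by Aldh3a2 at 0.47 and Suclg2 at 0.53. Tmc7 at 0.55 and Afdn at 0.56 came next for Fkbp5. Tsc22d3 had Nmnat1 at 0.52, Bcorl1 at 0.53 and Zfp112 at 0.56, Sgk1 had Dcaf12l1 at 0.52, Kdm4b at 0.54 and Tsta3 at 0.55, and Zbtb16 had Ppp2r1b at 0.55, Rad54l2 at 0.58 and Ube2g2 at 0.58. None of these nearest genes was among the 7.

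**Figure D4:**
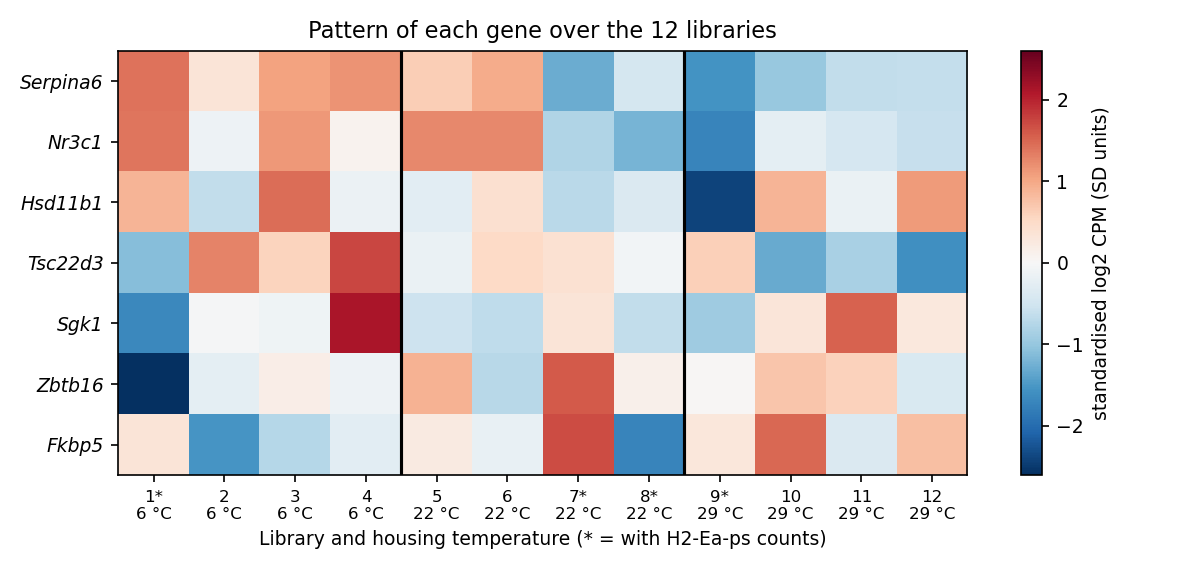
Standardised log2 CPM (colour, SD units) of the 7 genes (rows) in the 12 libraries (columns, by housing temperature, with an asterisk for libraries with H2-Ea-ps counts). Serpina6 and Nr3c1, the nearest pair at 0.52, are both high in libraries 5 and 6 and low in libraries 7 to 9, and Tsc22d3 runs against its own temperature group in libraries 1 and 9.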

How the data were processed

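The authors deposited raw counts per gene from rRNA-depleted total liver RNA in 12 libraries, 4 per temperature, and per the file headers each row has a symbol and an Ensembl identifier with version. GRCm38, STAR 2.6.1a, bcl2fastq and DESeq2 1.44.0 are listed, without roles, in the submitters' processing notes. How reads were counted, and whether by strand, was not given in the sources used here. No annotated gene shares exon bases with any of the 7. Positions and exon lengths come from GENCODE vM21 (54587 identifiers matched).

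Counts were tested with the quasi-likelihood test of edgeR 4.0.16 (R 4.3.3; filterByExpr by group, TMM, a robust fit of all 12 libraries, 9 residual degrees of freedom, two-sided). Adjusted p is Benjamini-Hochberg over 15006 genes, threshold 0.05, no minimum fold. The common biological coefficient of variation was 0.321. Intervals are 95%. Scripts were tested on simulated data. The genes, lists and the set of libraries with H2-Ea-ps counts were chosen with earlier results of these data known.

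Named genes were the 7, their partners (Nr3c2, Hsd11b2, H6pd, Fkbp4, Per1) and the targets Tat, Tdo2 and Pck1. Up to 4 called genes per list and comparison followed, or the 1 with the lowest p, and the 3 nearest genes by pattern that had a regular symbol and whose mean log2 CPM was 1 or more (pseudocount 0.1 CPM). Alternatives were DESeq2 size factors, no low-count filter, DESeq2 1.42.0, only the 8 libraries compared, a term for the H2-Ea-ps libraries, only libraries without H2-Ea-ps counts, and leaving out each library. Leaving out libraries 5 and 6 was added after seeing the data. No pair of replicates was so alike as to be 1 library deposited more than once, and total counts limit the precision as stated in the results. The element was searched in promoter windows only.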

Additional observations from a re-analysis of the deposited data

Results flagged for a closer look

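There were 72 sets of 4 libraries (24 of the named genes at 3 temperatures), of which Hsd11b2 at 6 °C and at 22 °C was 0 throughout and could not be tested. In 3 sets, 1 library lay far from the other 3 by Dixon's criterion, which chance alone exceeds in about 1 of 20 sets. Sgk1 at 22 °C was 60.3 CPM in library 7, against 41.4 to 43.6 CPM in the other 3. Nr3c2 at 22 °C was 10.3 CPM in the same library, against 18.4 to 19.6 CPM. Hsd11b2 at 29 °C was 0.0772 CPM in library 9, which is a single count, against 0 in the other 3, all under the value of 3 counts. With 0 in the other 3, any count in 1 library meets the criterion.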

How the results depend on the processing

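No paired analysis was possible because the library numbers run from 1 to 12 and the groups share none. At 29 °C against 6 °C, 379 genes passed, and 1178 with DESeq2, 1884 with a term for the H2-Ea-ps libraries, 1504 among libraries that lack H2-Ea-ps counts, 698 without libraries 5 and 6, and 41 to 439 without single libraries, the fewest being 41, 47, 67 and 71 without library 10, 4, 3 or 11. Of the 7 genes, 1 passed, against 0 without the low-count filter (Serpina6 adjusted p = 0.0904), 2 among libraries that lack H2-Ea-ps counts, and 0 to 1 without single libraries. At 29 °C against 22 °C, 0 genes passed, and 15 without the filter, 310 with DESeq2, 516 with the H2-Ea-ps term, 2594 among libraries that lack H2-Ea-ps counts and 0 to 78 without single libraries, with 2 of the 7 (Serpina6 and Tsc22d3) among libraries that lack H2-Ea-ps counts only. At 6 °C against 22 °C, 5 genes passed, and 165 with DESeq2, 3 with only the 8 libraries, 55 with the H2-Ea-ps term, 1015 among libraries that lack H2-Ea-ps counts, 3 without libraries 5 and 6, and 3 to 7 without single libraries. The cause of these changes was not tested.

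Signs changed only for differences that did not pass. Among libraries that lack H2-Ea-ps counts this held for Hsd11b1 (0.07) and Sgk1 (−0.05) at 29 °C against 6 °C, Zbtb16 (0.07) and Nr3c2 (−0.18) at 29 °C against 22 °C, and Nr3c1 (−0.21) at 6 °C against 22 °C. The H2-Ea-ps term gave −0.01 for Hsd11b1 at 29 °C against 22 °C and −0.01 for H6pd at 6 °C against 22 °C, and leaving out libraries 5 and 6 gave 0.06 for Nr3c1 at 29 °C against 22 °C. Sgk1 at 29 °C against 6 °C, at 0.00, was −0.00302 with DESeq2 size factors, −0.00381 with DESeq2, −0.00583 with 8 libraries and −0.00666 without libraries 5 and 6. Without single libraries, ranges at 29 °C against 6 °C were −0.15 to 0.03 (Hsd11b1), −0.27 to 0.53 (Sgk1), −0.05 to 0.29 (H6pd) and −0.02 to 0.24 (Per1). At 29 °C against 22 °C they were −0.04 to 0.14 (Hsd11b1), −0.03 to 0.42 (Fkbp5), −0.31 to 0.05 (Zbtb16) and −0.17 to 0.10 (Nr3c2), and at 6 °C against 22 °C −0.09 to 0.67 (Sgk1).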
